A study of Mus musculus with 180 samples.

Results

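The genes described here are the 4 members of the CLK (CDC2-like kinase) family, *Clk1*, *Clk2*, *Clk3* and *Clk4*, together with *Crebzf* and *Ttc14*, which are 6 of the 45070 genes in the table. They were taken by symbol and had been selected on their own values, as genes thought to rise in macrophages treated with JAK inhibitors (JAKi). Levels with JAKi are therefore given as a description with no test. Differences of the other CKIs (clinical kinase inhibitors) from DMSO are given with their calls, but also only as a description. They share the DMSO samples on which that choice rests. Only the comparisons among those other CKIs use samples that played no part in it. All 6 passed the filter on low values, which required a mean of 10 or more across the 180 samples. *Clk2* and *Crebzf* lie close to it, and the mean of *Clk2* was under 10 with 20 of the 58 CKIs.

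The cells were wild type bone marrow-derived macrophages, grown from male C57/BL6 mice aged 6–8 weeks. They received 1 of 58 CKIs or the vehicle DMSO for 1 h and then LPS at 10 ng/ml for 2 h, so the DMSO controls carry LPS as well and no group was left unstimulated. There were 3 samples for each CKI and 6 for DMSO, the latter in 2 labelled sets of 3 (s1 and s2). The concentrations were chosen for each CKI separately and differ, so differences between CKIs below are not at matched doses. The 6 JAKi are BMS911543, Filgotinib, Momelotinib, Pacritinib, Ruxolitinib and Tofacitinib. The other 52 CKIs are designated for other kinases, although the study lists JAK1 as the intended target of Apitolisib among them and set the concentration of another, TG100572, for the JAK family kinase TYK2.

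CLKs are dual-specificity nuclear kinases of the LAMMER family. They phosphorylate serine/arginine-rich (SR) splicing proteins, which releases these proteins from nuclear speckles and alters the choice of splice sites. Transcripts of *Clk1* and *Clk4* are known to be held in the nucleus with unspliced introns and to be spliced when CLK activity falls. *Crebzf* (also known as Zhangfei or SMILE) is a basic leucine zipper protein of the CREB/ATF family that binds the cofactor HCF-1 and acts mostly as a corepressor. *Ttc14* encodes a tetratricopeptide repeat protein that has been little studied.

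In the mm10 annotation of the table, *Clk1* lies at chr1:58411988-58424088 on the minus strand, *Clk2* at chr3:89164795-89177087 on the plus strand and *Clk3* at chr9:57750621-57765114 on the minus strand. *Clk4* lies at chr11:51263114-51281770, *Crebzf* at chr7:90442781-90448043 and *Ttc14* at chr3:33800183-33814860, all on the plus strand. The values are sums over the exons of each gene, so neither isoforms nor retained introns can be read from them. The span of *Clk2* lies wholly inside that of the predicted gene *Gm45927* on the same strand, whose values were 497 to 773, and the share of reads that belongs to *Clk2* is uncertain. *Clk4* shares 549 bases with *BC049762* and *Ttc14* shares 2500 bases with *Ccdc39*, both on the opposite strand, but those neighbours had values of at most 5 and 7.

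The sequences just before the start of a gene are shown because *Crebzf* belongs to the CREB/ATF family, whose binding site is the cAMP response element TGACGTCA. *Clk4* is shown because it had the largest single rise against DMSO among the genes described. RefSeq (GRCm38.p6) gave a start for 4 of the 6 genes. The 250 bases before the start of *Clk4*, *Crebzf* and, as the steadiest of the genes, *Clk3* are printed on the gene's strand from 5′ to 3′, with the cAMP response element and its core TGACG (either strand) in capitals.
Clk4, chr11:51262864-51263113: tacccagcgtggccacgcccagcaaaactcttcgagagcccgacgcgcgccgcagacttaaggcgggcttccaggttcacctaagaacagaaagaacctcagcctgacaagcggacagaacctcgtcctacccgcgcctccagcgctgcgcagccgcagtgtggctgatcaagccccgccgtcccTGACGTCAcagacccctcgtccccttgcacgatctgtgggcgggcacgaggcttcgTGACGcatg
Clk3, chr9:57765115-57765364: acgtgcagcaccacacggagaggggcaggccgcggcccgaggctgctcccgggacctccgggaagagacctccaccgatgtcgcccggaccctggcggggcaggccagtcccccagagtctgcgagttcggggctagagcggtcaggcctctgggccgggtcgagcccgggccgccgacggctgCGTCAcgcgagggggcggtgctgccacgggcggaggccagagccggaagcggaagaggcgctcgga
Crebzf, chr7:90442531-90442780: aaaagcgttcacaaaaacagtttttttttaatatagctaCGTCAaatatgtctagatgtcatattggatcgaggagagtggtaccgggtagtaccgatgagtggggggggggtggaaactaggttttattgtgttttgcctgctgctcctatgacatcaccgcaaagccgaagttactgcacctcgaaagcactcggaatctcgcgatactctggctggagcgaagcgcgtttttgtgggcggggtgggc

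The *Clk4* window held the whole element, which begins 65 bases before the start, and a further core that begins 9 bases before it. The whole element was present in 1.55% of the 32851 windows of this length in RefSeq and the core in 17.8%, counting the cores that lie within a whole element. *Clk2*, *Clk3* and *Crebzf* held 1 core each and no whole element. The STAT motif TTCNNNGAA, present in 7.02% of all windows, was in none of the 4, whereas the GC box GGGCGG, present in 32.7%, was in all 4. Both were also searched on both strands. These matches are of letters only, since binding was not measured here.

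The level of each gene was first examined with DMSO. *Clk1* had values of 153, 147 and 122 in set s1 and 259, 67 and 128 in set s2 (mean 146 ± 63.2, SD, n = 6). *Clk4* had 103, 97 and 101 in s1 and 109, 53 and 106 in s2 (94.8 ± 20.9), with the second s2 sample far below the others. *Clk3* was the steadiest gene, at 366, 388 and 356 in s1 and 375, 333 and 335 in s2 (359 ± 21.9). *Clk2* had 3, 8 and 9 in s1 and 18, 5 and 5 in s2 (8.0 ± 5.37), so its highest sample was 6 times its lowest. *Crebzf* had 21, 9 and 8 in s1 and 7, 14 and 11 in s2 (11.7 ± 5.20). *Ttc14* varied most among the better expressed genes, with 95, 72 and 28 in s1 and 87, 169 and 51 in s2 (83.7 ± 48.4).

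Per kilobase of exon, which allows genes to be compared, the order with DMSO was *Clk3* (195 ± 11.9), *Clk1* (47.3 ± 20.5), *Clk4* (43.9 ± 9.68), *Ttc14* (8.76 ± 5.07), *Clk2* (3.45 ± 2.31) and *Crebzf* (2.22 ± 0.989, SD, n = 6 for each). *Clk3* therefore stood apart from *Clk1* and *Clk4*, which did not differ from each other beyond their spread. Neither did *Clk2* and *Crebzf*. The place of *Clk2* in this order is uncertain, since its span lies inside that of *Gm45927* on the same strand. None of the 6 genes differed between the DMSO sets (limma, unadjusted p of at least 0.102, adjusted p = 1), and 0% of the 12714 genes tested were called, with 310 genes at an unadjusted p under 0.05. The intervals were wide for the low genes, and the difference of s2 from s1 in *Ttc14* was 0.65 on the log2 scale (95% interval −0.13 to 1.42).

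Across all samples the normalized values summed to between 9477340 and 12273349. Macrophage markers identified the cells, with summed values of 72380 to 212442 for 7 markers, all 7 of which had a median of at least 10. The 3 T cell and 4 erythroid markers had a median of 0. Neutrophil markers summed to 121 to 1444, and 4 of the 5 had a median of at least 10. The highest medians were those of *S100a8* (204) and *S100a9* (130.5), while that of *Ly6g* was 0. The sums were 1 to 46 for 4 B cell markers, 4 to 222 for 4 fibroblast markers and 33 to 161 for 3 dendritic cell markers. Of these, 1, 2 and 1 had a median of at least 10. The mitochondrial share of the values, a sign of RNA quality, ran from 0.525% to 4.47%, and it was 0.759% to 1.94% with DMSO. Over the group means of the 52 CKIs, that share correlated with the level of *Clk1* (r = 0.67), *Clk3* (0.60), *Crebzf* (0.51) and *Clk2* (0.33), but hardly with *Ttc14* (0.23) or *Clk4* (−0.07). It was higher than any DMSO sample in every Pimasertib and Lenvatinib sample, and its part in the results below was not tested except in a fit that includes it.

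The 6 genes were not all higher with the JAKi. Filgotinib, a JAK1 inhibitor, gave the highest *Clk1*, with values of 687, 977 and 387. It also gave the highest *Crebzf* of all conditions, at 40, 59 and 49, and the second highest *Clk4*, at 252, 309 and 254. All of these samples lay above every DMSO sample, and log2 fold changes, taken here and below on log2(value + 1), were 2.23 for *Clk1*, 2.06 for *Crebzf* and 1.54 for *Clk4*. With 10 added in place of 1, that of *Crebzf* was 1.47. With *Clk3* (492, 494 and 434, log2 fold change 0.40), 4 of the 6 genes had no overlap with DMSO, which held for 7.05% of all genes with Filgotinib. *Clk2* overlapped with DMSO, at 12, 18 and 5. In these bulk samples, a change in the number of cells that express a gene and a change in its RNA per cell cannot be told apart.

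*Ttc14* went against the description of the group. It was low with Filgotinib, at 16, 40 and 23, and with the JAK2 inhibitor BMS911543, at 28, 34 and 16, giving log2 fold changes of −1.52 and −1.51. Momelotinib, which is designated for JAK1 and JAK2, gave instead the highest *Ttc14* of all conditions, at 296, 353 and 304, and a log2 fold change of 2.11. With Pacritinib (92, 108 and 91), Ruxolitinib (58, 70 and 98) and Tofacitinib (53, 83 and 83) the values lay within the range of DMSO. The fold change of *Ttc14* was thus above 0 with 3 of the 6 JAKi, and with 2 of them after a further scaling of the samples. That scaling, by the median of ratios, moved the median of all genes by −0.16 on the log2 scale with Tofacitinib, the most among the JAKi.

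*Clk1* was above DMSO on average with all 6 JAKi, at log2 fold changes of 0.34 (BMS911543), 0.56 (Ruxolitinib), 0.87 (Momelotinib), 1.06 (Tofacitinib), 1.47 (Pacritinib) and 2.23 (Filgotinib). Filgotinib alone was without overlap, since at least 1 sample of each of the others lay below the highest DMSO value of 259. Pacritinib gave 520, 531 and 193, and its mitochondrial share was 0.892% to 4.20%. *Clk3* had log2 fold changes of 0.07 to 0.41 (that of Tofacitinib was 0.13 after the further scaling) and all 3 samples lay above DMSO with each JAKi but Ruxolitinib (422, 307 and 407). The *Clk3* samples of BMS911543 were nearly identical, at 464, 459 and 462.

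*Clk4* was at the level of DMSO with BMS911543 (118, 83 and 80, log2 fold change 0.00) and had fold changes of 0.24 to 0.58 with Tofacitinib, Pacritinib, Ruxolitinib and Momelotinib. Momelotinib (131, 127 and 161) and Ruxolitinib (110, 112 and 177) lay above all DMSO samples for this gene, the latter by 1 unit in its lowest sample. With Momelotinib, *Clk3*, *Clk4* and *Ttc14* were the 3 of 6 genes without overlap, beside 3.71% of all genes. *Clk2* had its highest mean of all conditions with Tofacitinib, at 18, 17 and 17, but 1 DMSO sample also reached 18. *Crebzf* overlapped with DMSO for every JAKi other than Filgotinib.

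**Figure D1:**
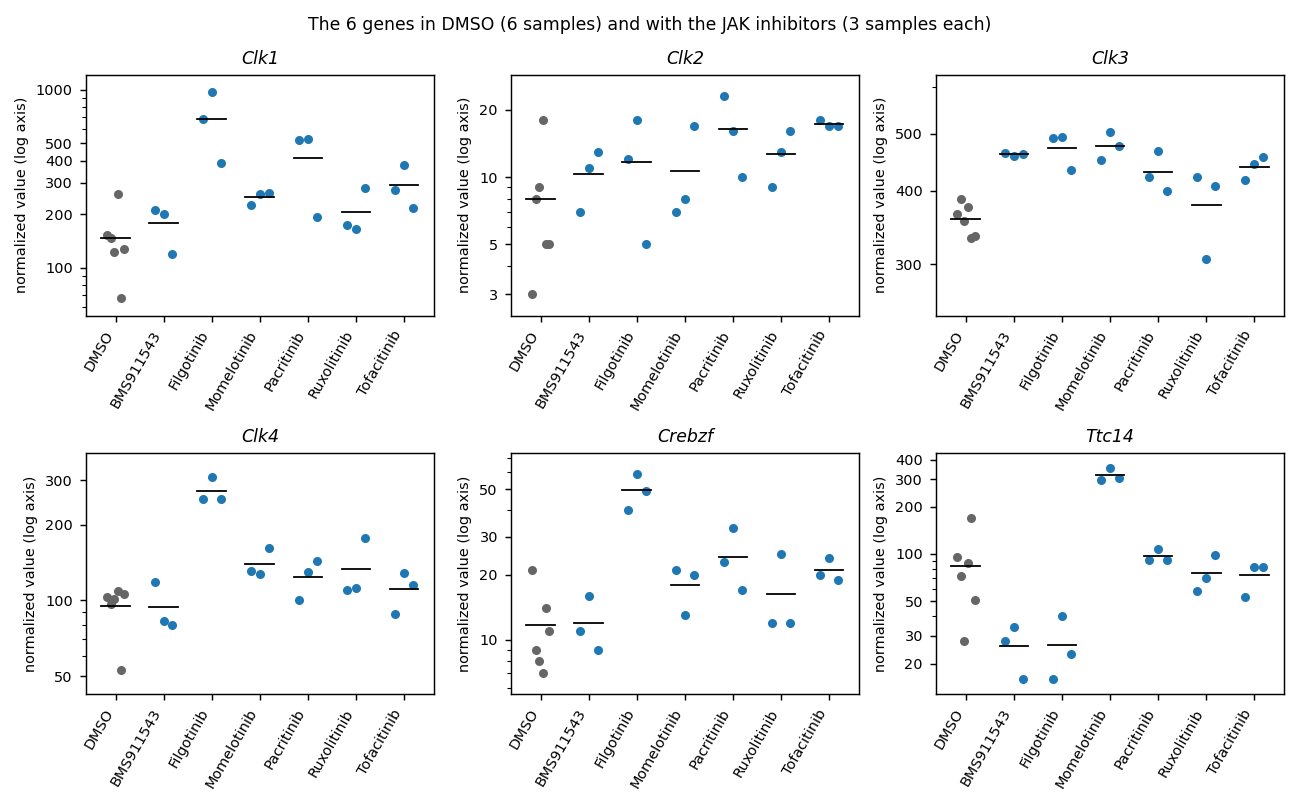
Normalized values on a log axis of the 6 genes in the 6 DMSO samples (grey) and the 3 samples of each JAKi (blue), with the mean of each group as a line. The Filgotinib samples stand above all others shown for *Clk4* and *Crebzf*, and their mean is the highest for *Clk1*, while for *Ttc14* they lie at 16 to 40 and those of Momelotinib at 296 to 353.

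It was then asked how the genes behaved with the 52 CKIs that are not JAKi. The DMSO samples are the ones used when the genes were chosen, so a low DMSO level would favour rises in both, and the calls against DMSO are given as a description that supports no direction. *Clk1* was higher than DMSO with 8 CKIs (Apitolisib, AZD2014, BGT226, Lapatinib, Lenvatinib, Omipalisib, PF04691502 and Pimasertib) and *Clk3* with 6 (Apitolisib, BGT226, Lapatinib, Lenvatinib, Omipalisib and PF04691502), by limma's moderated test at an adjusted p under 0.05. *Clk4* was higher with 4 (Afatinib, BGT226, Mubritinib and Omipalisib), *Crebzf* with 4 (Apitolisib, AZD2014, Lapatinib and Lenvatinib) and *Clk2* with 3 (Afatinib, BGT226 and Lenvatinib). *Ttc14* was higher with BGT226 alone and lower with Afatinib, AZD2014 and Bafetinib. For comparison, over all 12714 genes and 52 CKIs, 2.51% of the pairs of a gene and a CKI were called higher and 1.38% lower. No CLK and not *Crebzf* was called lower with any CKI. With the replicate number in the fit, *Clk3* was called higher with 10 CKIs and *Crebzf* with 7. With the mitochondrial share added too, these were 3 and 1.

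Most of these calls came with CKIs that changed many genes. BGT226 raised 5 of the 6 genes, all but *Crebzf*, while 24.1% of all genes were called higher. Its call of *Clk2* was lost without any one of the replicate numbers (adjusted p-values of 0.0925 to 0.187), without a filter and after further scaling. Its call of *Ttc14* was lost without replicate 1 (adjusted p = 0.0663) and with DMSO set s2 alone (adjusted p = 0.1345). *Clk1*, *Clk3* and *Clk4* had no overlap with DMSO there, as had 19.5% of all genes. Lenvatinib raised 4 (11.4% of all genes), Lapatinib 3 (18.1%), Apitolisib 3 (12.7%) and Omipalisib 3 (17.5%). AZD2014 raised 2 (6.06%) and lowered *Ttc14* (13.5% of all genes lower), and Afatinib raised 2 (9.06%) and lowered *Ttc14* (12.8%). The mitochondrial share was 1.92% to 3.71% with Lapatinib, 2.07% to 3.70% with Lenvatinib and 1.49% to 4.04% with Apitolisib. The further scaling moved the split of all calls over the 52 CKIs from 16566 higher and 9139 lower to 10849 higher and 14457 lower, and left 8, 1, 3, 4, 1 and 1 CKIs with higher *Clk1*, *Clk2*, *Clk3*, *Clk4*, *Crebzf* and *Ttc14*.

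DMSO itself was near the bottom of the order for most of the genes. Among the 59 conditions its mean was the second lowest for *Clk3* and *Crebzf*, the fourth lowest for *Clk1* and *Clk2* and the fifth lowest for *Clk4*, but the 34th from the lowest for *Ttc14*. The fold change was above 0 with 49 of 52 CKIs for *Clk1*, *Clk2* and *Clk4*, with 51 for *Clk3* and *Crebzf*, and with 22 for *Ttc14*. Over all genes tested, the median of this number was 34. The median over the 52 CKIs was 0.80 for *Clk1*, 0.53 for *Crebzf*, 0.48 for *Clk2*, 0.31 for *Clk4*, 0.21 for *Clk3* and −0.10 for *Ttc14*. All 52 values of a gene share the same 6 DMSO samples and so move together, and the middle 50% of all genes had medians of −0.07 to 0.23. After the further scaling the medians were 0.70, 0.46, 0.15, 0.25, 0.48 and −0.16 for *Clk1*, *Clk2*, *Clk3*, *Clk4*, *Crebzf* and *Ttc14*.

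**Figure D2:**
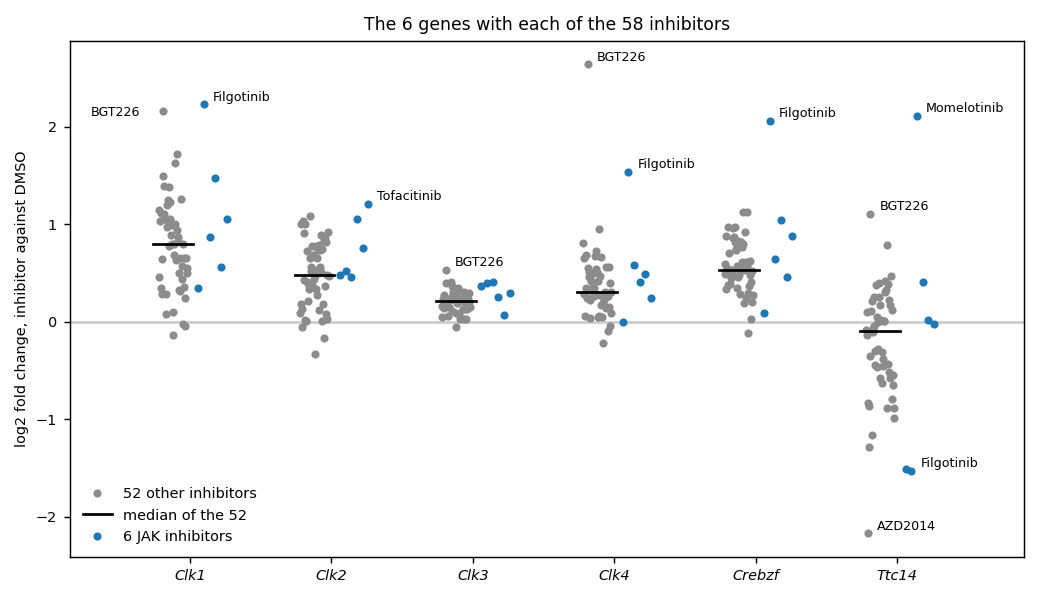
Log2 fold change against DMSO of the 6 genes with each of the 52 other CKIs (grey, median as a line) and the 6 JAKi (blue). Most points of the CLKs and *Crebzf* lie above 0, with BGT226 at 2.64 for *Clk4*, while those of *Ttc14* spread from −2.17 with AZD2014 to 2.11 with Momelotinib.

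To leave out the DMSO samples, each of the 52 CKIs was compared with the mean of the other 51. Of the 312 pairs of a gene and a CKI, 9 were called, 6 higher and 3 lower, and 51 had an unadjusted p under 0.05. The share of all pairs called was 2.4%, so the number called among the 6 genes was close to that of genes at large. BGT226 accounted for 4 of the 6 higher calls. With it, 4 of the 6 genes were called higher, beside 24.4% of all genes. Over all genes BGT226 gave 3108 higher calls, where the 52 CKIs together gave 15886 calls in either direction. Many calls of genes at large therefore came with BGT226 too. AZD2014 and Afatinib accounted for 2 of the lower calls, both of *Ttc14*. *Clk2* and *Crebzf* were called with no CKI (2 and 4 CKIs at an unadjusted p under 0.05).

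*Clk4* with BGT226 was the largest of these differences. The 3 samples had values of 589, 707 and 471, all above every DMSO sample. The difference from the other 51 CKIs was 2.30 ± 0.17 on the log2 scale (SE, adjusted p = 9.09e-25), 4.94-fold. Omipalisib gave the next highest *Clk4* of the 52, at 192, 206 and 146, and differed from the others by 0.58 ± 0.17 (adjusted p = 0.00461), a call that was lost without replicate 1 (adjusted p = 0.0917) or replicate 2 (adjusted p = 0.0590). In the order of all 59 conditions, BGT226, Filgotinib and Omipalisib were the top 3 for *Clk4* and their ranges did not overlap between BGT226 and Filgotinib or between Filgotinib and Omipalisib, while below them each neighbour overlapped with the next.

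*Clk1* with BGT226 had values of 694, 811 and 400 and was 1.40 ± 0.29 above the other 51 CKIs on the log2 scale (adjusted p = 3.13e-05). Pimasertib, a MEK inhibitor, also raised *Clk1* (549, 246 and 667, 0.95 ± 0.29, adjusted p = 0.0386), and its mitochondrial share was 3.24% to 4.29% of the values. With that share and the replicate number in the fit the difference was 0.24 (adjusted p = 0.903), and the call was also lost without replicate 1 (adjusted p = 0.174), without replicate 3 (adjusted p = 0.557) and without a filter (adjusted p = 0.0516). Neratinib, an ERBB inhibitor, had the lowest mean *Clk1* of all conditions, at 143, 131 and 100 (−0.94 ± 0.29, adjusted p = 0.0470). That call was lost when any one of the replicate numbers was left out, with adjusted p-values of 0.0632 to 0.688. No neighbours in the order of *Clk1* had ranges apart.

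*Clk3* moved little and steadily. With BGT226 its values were 531, 473 and 559, which is 0.33 ± 0.09 above the other 51 CKIs on the log2 scale (adjusted p = 0.00144), or 1.26-fold. After the further scaling the difference was 0.20 (adjusted p = 0.0528), and the median of all genes with BGT226 against DMSO moved by −0.19 under that scaling.

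*Ttc14* moved in both directions. BGT226 gave 174, 212 and 106, a difference of 1.34 ± 0.28 from the other 51 CKIs (adjusted p = 4.42e-05). The mTOR inhibitor AZD2014 gave 20, 10 and 18, the lowest mean of all conditions, and a difference of −2.00 ± 0.28 (adjusted p = 5.61e-09), and 15.8% of all genes were called lower in that comparison. Afatinib, an ERBB inhibitor, gave 32, 26 and 30 (−1.09 ± 0.28, adjusted p = 0.00192), a call that was lost without replicate 1 (adjusted p = 0.0527) or replicate 2 (adjusted p = 0.1001). Selumetinib, a MEK inhibitor with 112, 138 and 129, followed Momelotinib and BGT226 in the order of the means. Only Momelotinib stood apart from its neighbour, BGT226.

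Among the CKIs used, BGT226 is the one for which the study lists CLK1 as the intended target, in addition to PI3K and mTOR, for which it was designated. It was therefore compared with the mean of AZD2014, Apitolisib, Omipalisib and PF04691502, which are designated for mTOR or for all or most PI3K isoforms. The contrast uses none of the samples on which the genes were chosen. Of the 6 genes, 3 were higher with BGT226 and none lower, and 21% of all genes were called higher. These were *Clk4*, *Ttc14* and *Clk1*.

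*Clk4* was 2.26 ± 0.18 higher with BGT226 on the log2 scale, or 4.78-fold (adjusted p = 2.03e-20). The 12 samples of the comparators ranged from 93 to 206 with a median of 107, so every BGT226 sample lay above all of them. For *Ttc14* the comparators ranged from 10 to 76 with a median of 44.5, and BGT226 was again above all of them, by 2.01 ± 0.31 (4.02-fold, adjusted p = 8.66e-08). Its 3 values of 174, 212 and 106 overlapped with DMSO, however, where *Ttc14* reached 169, and the median of the comparators lay below 5 of the 6 DMSO samples. The means of the 4 comparators were 16 with AZD2014, 46.7 with Omipalisib, 53.7 with PF04691502 and 58.3 with Apitolisib.

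*Clk1* was 0.85 ± 0.32 higher than with the comparators (1.81-fold, adjusted p = 0.0374), whose samples ranged from 166 to 484, so that the BGT226 value of 400 lay within their range. This call was lost under several alternatives, among them without the second BGT226 sample (difference 0.65) and after further scaling (0.73, adjusted p = 0.0636). *Clk3* differed by 0.21 (95% interval 0.01 to 0.40, adjusted p = 0.120), *Clk2* by 0.59 (−0.11 to 1.29, adjusted p = 0.240) and *Crebzf* by −0.10 (−0.69 to 0.50, adjusted p = 0.862). The values of *Clk2* with BGT226 were low, at 18, 10 and 18, and its interval is wide.

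The mitochondrial share was 0.884% to 2.11% with BGT226, within the range of the comparators, where the lowest sample was 0.965% (AZD2014) and the highest 4.45% (PF04691502), except for 1 lower BGT226 sample. With this share and the replicate number in the fit, *Clk4* and *Ttc14* remained higher with BGT226. The gene that overlaps *Clk2*, *Gm45927*, had a log2 fold change of −0.09 with BGT226 against DMSO (adjusted p = 0.510).

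Silmitasertib is a CK2 inhibitor for which CLK1 and CLK3 are listed among the other kinases it inhibits. It was compared with XL413 and NMS1286937, for which CK2 but no CLK is listed. None of the 6 genes was called (adjusted p = 1.00 for each, none with an unadjusted p under 0.05), and 0% of all genes were, with 382 at an unadjusted p under 0.05. The log2 difference was −0.01 for *Clk1* (95% interval −0.70 to 0.68), 0.02 for *Clk3* (−0.19 to 0.23) and 0.01 for *Clk4* (−0.39 to 0.41). It was −0.49 for *Clk2* (−1.26 to 0.27), −0.13 for *Crebzf* (−0.78 to 0.53) and 0.30 for *Ttc14* (−0.38 to 0.97). The interval of *Clk4* ends at 0.41, while those of *Clk1* and *Ttc14* reach 0.68 and 0.97. The contrast of BGT226 had other comparators and another dose, and CLK activity was not measured here with either CKI. *Clk4* had values of 105, 131 and 109 with Silmitasertib and 84 to 155 in the comparators. Against DMSO, none of the 6 was called with Silmitasertib either, and 0.00787% of all genes were called higher and 0.275% lower.

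**Figure D3:**
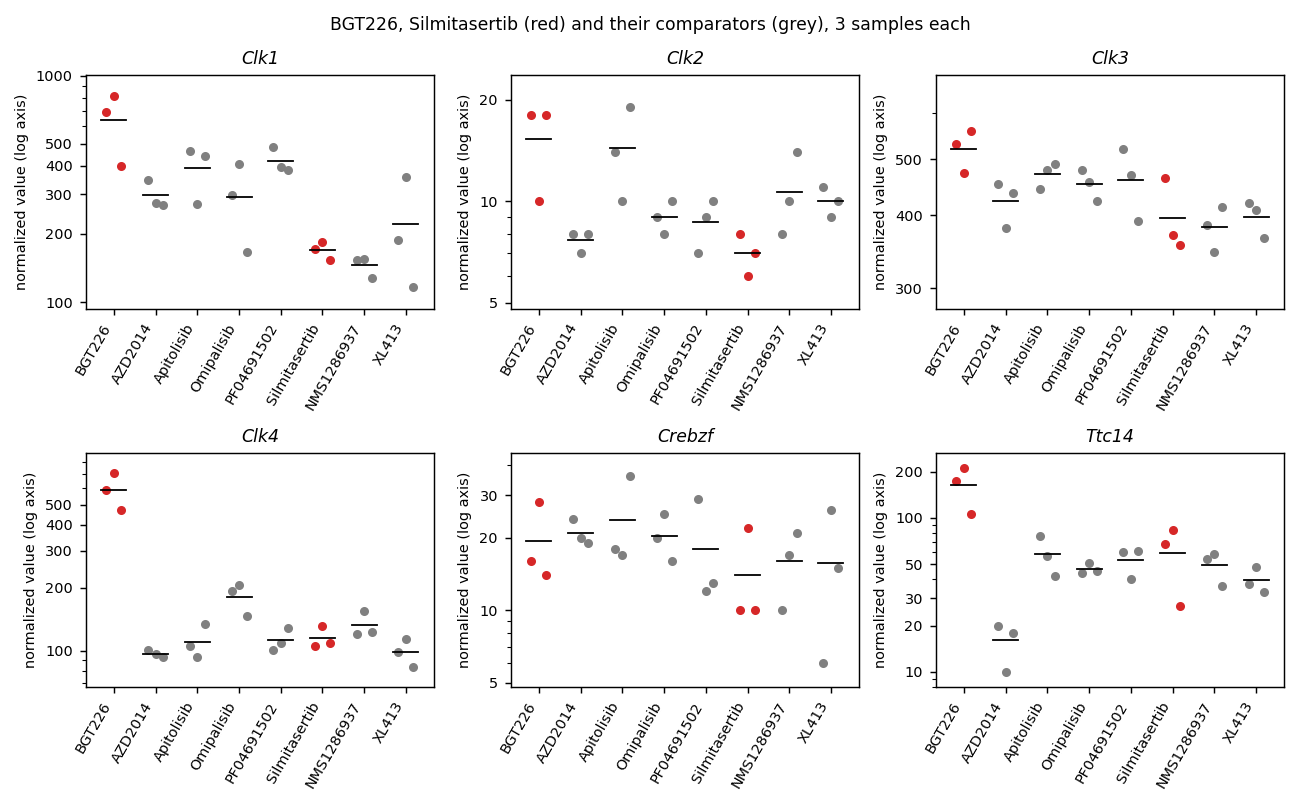
Normalized values on a log axis of the 6 genes with BGT226 and Silmitasertib (red) and the CKIs they were compared with (grey), 3 samples each, with group means as lines. BGT226 stands above every comparator for *Clk4* (471 to 707) and *Ttc14* (106 to 212), while Silmitasertib lies among its comparators.

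To place the genes in their pathway, lists of splicing genes were examined against DMSO, none of which holds any of the 6 genes. They were 12 SR proteins, the substrates of the CLKs, 12 SR protein kinases and relatives of the CLKs (10 passed the filter), 20 nuclear RNA processing genes and 3 nuclear long RNAs. With BGT226, 17 of the 45 tested were higher and 3 lower, where 24.1% of all genes were higher and 6.32% lower. Their median was 0.36 on the log2 scale, against 0.21 for all genes. After the further scaling, 11 were higher and 6 lower.

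Among the kinases, 6 of 10 were higher with BGT226 and none lower. *Dyrk1b*, a kinase of the DYRK family that is related to the CLKs, rose 4.85-fold (50 ± 24.8 with DMSO, n = 6, and 228 ± 39.6 with BGT226, n = 3, adjusted p = 7.94e-12). *Dyrk3* and *Dyrk2* of the same family rose by 1.12 and 1.07 on the log2 scale. After the further scaling *Dyrk1b* and *Dyrk2* kept their calls, while *Dyrk3* (adjusted p = 0.0691) and *Dyrk1a* (adjusted p = 0.133) did not. Of the 20 nuclear RNA processing genes, 8 were higher and 2 lower. Among those higher, *Rsrp1* (adjusted p = 0.0513) and *Srrm1* (adjusted p = 0.333) lost their calls after the further scaling. The largest rises were those of *Ccnl1*, the CDK11 partner cyclin L1 (5.70-fold, adjusted p = 4.73e-10), *Nktr* (3.66-fold) and *Luc7l*, a U1 snRNP-associated factor (1.59 on the log2 scale). The spliceosomal scaffold *Srrm2* fell by 0.48 and the helicase *Ddx5* fell by 0.31.

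The SR proteins themselves moved less with BGT226, with 2 higher, 1 lower and a median of 0.01. *Srsf4* rose by 0.80 and *Srsf11* by 0.49, and *Srsf1* fell by 0.62, but after the further scaling neither rise was called (adjusted p = 0.0561 and 0.233). Of the long RNAs, *Neat1*, the scaffold of paraspeckles, rose 3.11-fold (adjusted p = 4.04e-07).

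With Filgotinib, which gave the highest *Clk1* and *Crebzf*, the listed genes went in both directions, 6 higher and 9 lower, where 6.1% of all genes were higher and 14.6% lower. *Pnisr* (−1.79), *Luc7l3* (−1.25) and *Rbm25* (−0.92) had the largest falls among the processing genes, and *Rbm39*, a U2AF-related splicing factor, rose by 0.89, with *Srrm1* and *Son* at 0.74 and 0.48. Among the SR proteins *Srsf2* (0.92) and *Srsf3* (0.68) rose, and *Srsf6* (−1.08), *Tra2a* (−0.87) and *Srsf11* (−0.60) fell. Of the kinases, *Prpf4b* rose by 0.68. BMS911543, which left *Clk4* at the level of DMSO, raised none of the 45 and lowered 8 (0.472% and 8.08% of all genes), among them *Srsf6* (−1.97), *Srsf1* (−1.29) and *Srsf4* (−1.24).

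With Tofacitinib 10 were higher and none lower (9.02% and 0.857% of all genes), led by *Arglu1* (1.28) and the long RNA *Kcnq1ot1* (1.10). The further scaling moved the calls over all genes with Tofacitinib from 1147 higher and 109 lower to 167 higher and 327 lower. How many of the 45 keep their calls then was not tested. Momelotinib, Pacritinib and Ruxolitinib changed none of the 45 (5, 18 and 2 at an unadjusted p under 0.05). They changed few genes of any kind, with 0.378%, 0.118% and 0% of all genes higher and 0.409%, 0.0551% and 0% lower (590 genes at an unadjusted p under 0.05 with Ruxolitinib). Silmitasertib also changed none of the 45 (3 at an unadjusted p under 0.05).

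Splicing genes were also examined with AZD2014 and Afatinib, where *Ttc14* was low. AZD2014 lowered 13 of the 45 and raised 4, where 13.5% of all genes were lower and 6.06% higher, with *Srsf6* (−2.71), *Srsf1* (−1.54), *Srsf4* (−1.29), *Prpf38b* (−1.21) and *Rsrp1* (−1.18) among those that fell and *Dyrk1b* (1.42) among those that rose. Afatinib lowered 10 and raised none, where 12.8% of all genes were lower and 9.06% higher, with *Srsf6* (−1.38), *Srsf4* (−1.14) and *Ccnl1* (−1.07) the farthest down. Omipalisib, which raised *Clk4*, lowered 6 of 12 SR proteins (*Srsf9* by −0.95) and raised 4 of 10 kinases (*Dyrk1b* by 1.90), where 8.16% of all genes were lower and 17.5% higher. Lenvatinib, Lapatinib and Apitolisib, which raised *Clk1*, *Clk3* and *Crebzf*, raised 10, 12 and 6 of the 45 and lowered 1, 1 and 0, where 11.4%, 18.1% and 12.7% of all genes were higher and 0.802%, 5.26% and 3.2% lower. *Srsf5* rose with all 3 of these, by 0.91, 1.00 and 1.12. The further scaling moved the calls over all genes with Lenvatinib from 1446 higher and 102 lower to 174 higher and 462 lower. With Lapatinib they were then 1558 higher and 1393 lower, and with Apitolisib 830 and 901. How many of the 45 keep their calls after that scaling was not tested for these CKIs.

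**Figure D4:**
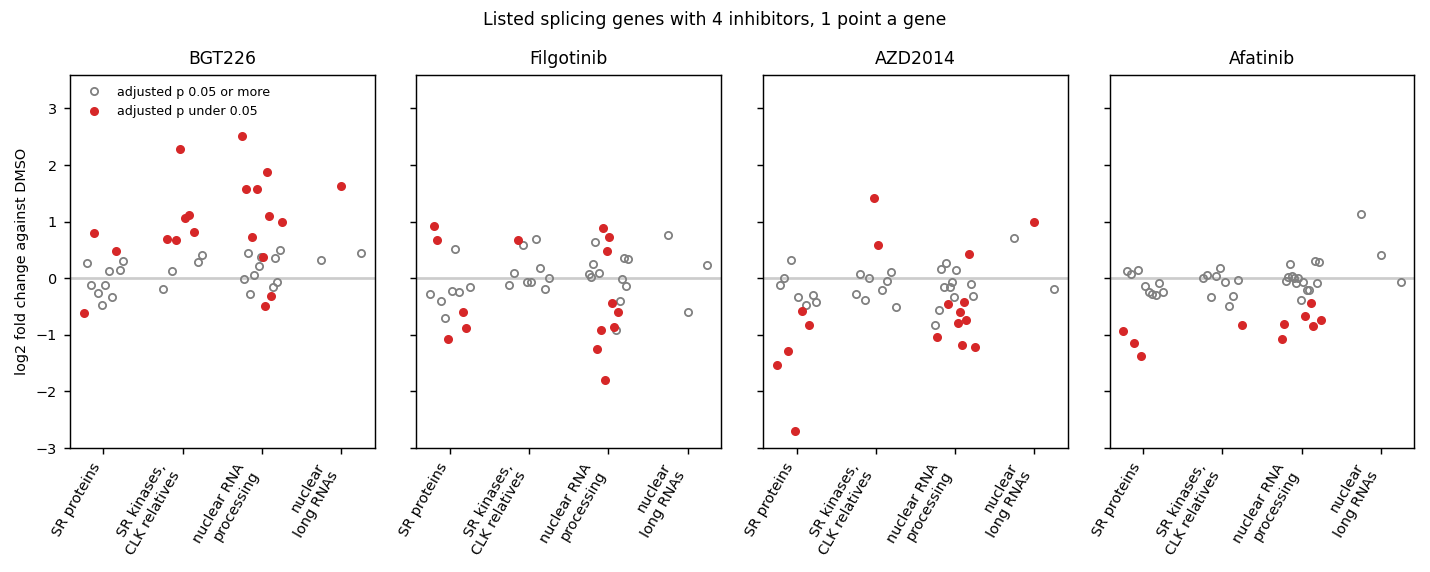
Log2 fold change against DMSO of the listed splicing genes with 4 CKIs, 1 point a gene, filled in red where the adjusted p was under 0.05. With BGT226 most called genes lie above 0 (17 of 20), with AZD2014 (13 of 17) and Afatinib (10 of 10) most lie below, and with Filgotinib both occur.

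For *Crebzf*, 7 partners and relatives were examined. With BGT226 *Atf4*, a CREB/ATF factor of the stress response, rose 6.35-fold (1594 ± 179 with DMSO, 10084 ± 338 with BGT226, adjusted p = 4.08e-53) and *Atf6* rose by 0.63, while *Xbp1*, another bZIP factor of that response, fell by 0.99. *Crebzf* was not called there (16, 28 and 14, log2 fold change 0.71). With Filgotinib, where *Crebzf* was highest, the partners moved little, and only *Xbp1* (−0.84) was called of the 7. AZD2014 lowered 4 of the 7 and raised none, and Afatinib lowered 3 and raised 2, where 13.5% and 12.8% of all genes were lower. Those lowered include *Hcfc2* with AZD2014 (−0.58) and *Hcfc1*, the HCF-1 cofactor, with Afatinib (−0.65). Tofacitinib and Lenvatinib raised 2 and lowered none, Lapatinib and Omipalisib raised 2 and lowered 1, and Apitolisib raised 1 and lowered 1. After the further scaling, the calls with BGT226 held, at 2.47 for *Atf4*, 0.44 for *Atf6* and −1.18 for *Xbp1* on the log2 scale. Whether those with the other CKIs hold was not tested. BMS911543 lowered *Xbp1* alone (−1.52).

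The levels of the 6 genes did not follow each other closely over the 52 CKIs. These correlations are between group means that share an experiment and its depth, and are given as a description. *Clk1* and *Clk3* had the closest pattern (r = 0.71), followed by *Clk1* with *Crebzf* (0.52) and with *Clk4* (0.52). *Clk3* and *Clk4* (0.39) and *Clk4* and *Ttc14* (0.20) were weaker. The relations of *Clk4* rested on BGT226, since without it r was 0.35 for *Clk1* and *Clk4*, 0.08 for *Clk3* and *Clk4* and −0.11 for *Clk4* and *Ttc14*, whereas that of *Clk1* and *Clk3* was 0.65.

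**Figure D5:**
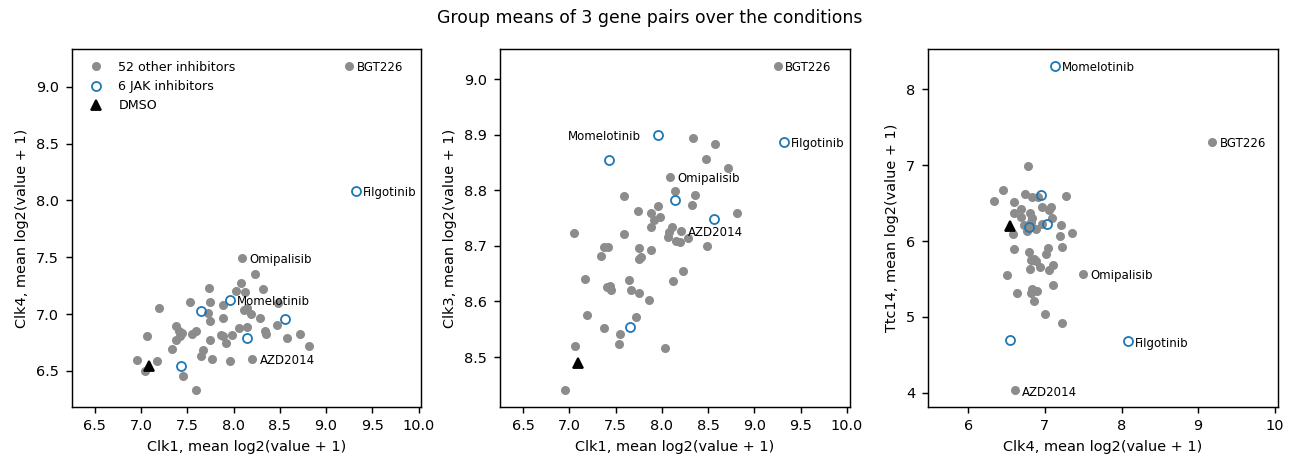
Group means of log2(value + 1) of 3 pairs of genes over the 52 other CKIs (grey), the 6 JAKi (open blue circles) and DMSO (triangle). BGT226 lies far from the other points for *Clk4*, and the points of *Clk4* and *Ttc14* show little relation (r = −0.11 without BGT226).

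The genes with the most similar pattern over the 52 group means also differed between the 6. For *Clk1* they were *Rab7b* (r = 0.89), *Klhl6* (0.89), *Nlrc3*, *Rnmt* and *Kif2a* (0.88 each) and for *Clk3* *Hnrnpc* (0.86), *Ufd1*, *Cstb*, *Ift46* and *Gas5* (0.85 each). For *Clk4* they were *Tspan14*, *Pacc1* (both 0.85), *Rbm39*, *Flcn* and *Tbc1d31* (0.84), but without BGT226 these fell to between 0.43 (*Rbm39*) and 0.72 (*Flcn*). *Ttc14* had the closest neighbours of all, *Wdr41* (0.95), *Prmt3* (0.94), *Adpgk*, *Slc30a5* (both 0.93) and *Rbm17* (0.92), and without BGT226 they stayed at 0.93 to 0.96. *Crebzf* (*Vav3* at 0.65, *Maoa*, *Gm41442*, *Cd300ld5* and *Gm7729*) and *Clk2* (*Elp6* at 0.54, *Tnfsf13b*, *Cdk5rap1*, *Gm51909* and *Acot8*) had no neighbour above 0.65. Both have low values in all samples, although the share of reads that belongs to *Clk2* is uncertain.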

How the data were processed

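PolyA RNA of 180 samples had been copied by the SMART-seq2 protocol, cut with Tn5 and sequenced. Alignment by the authors used TopHat2 2.1.1 and mm10, after which they removed blacklisted regions with bedtools 2.29.2 and counted reads on curated RefSeq exons. They scaled each sample on genes that vary little and deposited the values rounded to whole numbers, treated here as a score and called normalized values. These are no longer counts, so the authors' own count test (DESeq2 without its normalization, R 3.6.2) was not repeated. The totals of the normalized values are not read depths, so the counting error of low genes is unknown.

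Samples were grouped by their labels, and all columns matched a sample. log2(value + 1) of the 12714 genes with a mean of at least 10 was fitted with limma 3.58.1 in R 4.3.3 (moderated test, variance trend, 59 groups in 1 fit), and p-values were adjusted across all genes within each contrast (Benjamini-Hochberg), with a threshold of 0.05. Errors of differences are SE and intervals are 95%. The genes described and the lists were chosen with earlier results of these data known. List genes named are up to 3 rises and 3 falls per list among those called, for the 6 JAKi, BGT226, Silmitasertib and the CKIs with most of the 6 genes called (6 CKIs, since 5 of them tie at 3). Nearest genes are the 5 of highest correlation. The script was tested on simulated data. The settings varied were the pseudocount (0.5, 10), the filter (none, 50), median-of-ratios scaling, the variance trend (none), a replicate block alone and with the mitochondrial share, either DMSO set alone, only the groups compared, and leaving out samples. Replicates are called independent in the study's methods. Sequences and motifs were read with Python 3.11.15 from RefSeq (GRCm38.p6), which matched 4 of the 6 genes.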

Additional observations from a re-analysis of the deposited data

Results flagged for a closer look

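One of the DMSO values stood far from the others. *Clk4* was 53 in the second sample of DMSO set s2, against 97 to 109 in the other 5 DMSO samples, and the gap of the lowest value to the next was 0.786 of the whole range, above Dixon's 95% critical value for 6 samples. Chance gives such a value in about 1 of 20 groups, and 6 genes were examined. Without that sample 2 CKIs had higher *Clk4* than DMSO instead of 4. The comparisons of BGT226 with other CKIs do not use it.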

How the results depend on the processing

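The calls of higher *Clk4* and *Ttc14* with BGT226, against the other PI3K and mTOR inhibitors, held under all 15 alternatives run for each (log2 differences of 2.11 to 2.42 and 1.692 to 2.292). Against the other 51 CKIs, the calls of *Clk1*, *Clk4* and *Ttc14* with BGT226 and of *Ttc14* with AZD2014 held under all 11. A filter at a mean of 50 left *Clk2* and *Crebzf* out and gave no value for them. Low values limit both genes.

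For the numbers of CKIs with a higher value than DMSO, the range on leaving out a replicate or a DMSO sample was 3 to 14 for *Clk1* (8 in the report), 0 to 5 for *Clk2* (3), 1 to 10 for *Clk3* (6), 2 to 4 for *Clk4* (4), 0 to 8 for *Crebzf* (4) and 0 to 1 for *Ttc14* (1), and 1 to 8 for lower *Ttc14* (3). *Clk1* had 3 without replicate 2, 4 without replicate 3, 4 without the second s2 sample and 14 without the first. With a pseudocount of 10, *Crebzf* had 2. Without a filter *Clk2* and *Crebzf* had 0, 153 genes differed between the DMSO sets, and *Clk1* with BGT226 against the PI3K and mTOR inhibitors was 0.853 but not called (adjusted p = 0.0704). With median-of-ratios scaling *Clk2* had 1, *Clk3* 3 and *Crebzf* 1, the listed splicing genes were 11 higher and 6 lower with BGT226, and that *Clk1* difference was 0.729, not called. With set s1 alone, *Clk1* had 4, *Clk2* 1, *Clk3* 1, *Clk4* 2, *Crebzf* 0 and *Ttc14* 1 lower, and 0 splicing genes were lower with BGT226. With set s2 alone, *Clk2*, *Crebzf* and higher *Ttc14* had 0, and 11 splicing genes were higher.

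The replicate number was left out of the main fit, although samples of the same number were more alike. Of 180 samples, 157 correlated best with their own number. The mean correlation was 0.225 for the same number and −0.112 for different numbers. The 3 same-numbered pairs of the DMSO sets reached 0.237 to 0.514. Not every pair followed this, since 71.8% of same-numbered pairs correlated above 0.1 and the lowest correlation was −0.726. The numbers of calls depend on leaving the replicate number out. With the number as a replicate block *Clk3* had 10, *Crebzf* 7, the splicing genes higher with Filgotinib were 10, and 5 gene and CKI pairs were lower than the other 51 CKIs. With the mitochondrial share in the block fit *Clk1* had 4, *Clk3* 3 and *Crebzf* 1. Against the PI3K and mTOR inhibitors, *Clk3* was then called (0.235) and *Crebzf* had the opposite sign (0.0248).

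Leaving out replicates gave 0.635 to 1.16 for that *Clk1* difference, 0.127 to 0.273 for *Clk3* and −0.455 to 0.0910 for *Crebzf*, whose uncalled sign reversed at 0.0838, 0.0785, 0.000743 and 0.0910. It gave 1 to 3 lower pairs, 12 to 17 and 1 to 3 splicing genes higher and lower with BGT226, and 5 to 9 and 5 to 11 with Filgotinib.

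Alternatives for the correlations were chosen after seeing the data. Without BGT226 and by Spearman's rho they were 0.346 and 0.395 for *Clk1* and *Clk4*, 0.654 and 0.657 for *Clk1* and *Clk3*, 0.540 and 0.514 for *Clk1* and *Crebzf*, 0.0753 and 0.140 for *Clk3* and *Clk4*, and −0.110 and −0.118 for *Clk4* and *Ttc14*. Leaving out replicates gave 0.450 to 0.581, 0.584 to 0.716, 0.414 to 0.479, 0.282 to 0.323 and 0.176 to 0.255.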
